A study of Homo sapiens with 7 samples.

Results

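HepG2 is a human liver cancer cell line, and 37 of its 12676 analysed genes were silent with 3 or more nucleosomes of the trivalent histone mark near their start. A trivalent nucleosome ("T") is a nucleosome position listed as enriched for H3K4me3, H3K9ac and H3K27ac and for neither H3K27me3 nor H3K9me3. The 37 genes were chosen by measured values: a mean FPKM below 0.1 over both RNA-Seq columns, and 3 or more T with their midpoint within 2 kb of the gene start. They made up 0.292% of all analysed genes (95% exact binomial interval 0.206 to 0.402%) and are described below without any test of the values that selected them. The analysed genes were the autosomal loci, on chromosomes 1 to 22, whose symbol and coordinates no other locus shared. All 7 samples came from HepG2 cultures for which the labels name no treatment, with 1 sample for each of the 5 histone marks, for native nucleosome positions and for RNA. No genotype, treatment or time course was compared, and no assay had a replicate sample, so all comparisons are between genes of the same cells. The RNA sample had 2 FPKM columns, called run 1 and run 2 here, and the labels do not say whether they came from separate cultures.

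H3K4me3 is a methylation mark typical of promoters, and H3K9ac and H3K27ac are acetylation marks typical of promoters and enhancers in use. H3K27me3 is laid down by Polycomb complexes at repressed developmental genes, and H3K9me3 marks heterochromatin. Many human genes start close to a neighbour that is transcribed in the opposite direction, an arrangement called head to head or bidirectional, in which a single nucleosome-poor region often serves both starts.

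The hepatocyte identity of the cells was visible in the RNA. All 10 hepatocyte markers examined were expressed, at 56.6 to 10011 FPKM. Of the markers of other cell types, 1 of 5 fibroblast or stellate markers, 0 of 4 endothelial markers and 1 of 4 blood markers reached 1 FPKM, and the highest of them stood at 2.53 FPKM. The peak lists held no heights or scores and the files hold no read totals, so each position counts as marked or unmarked. All intervals below are exact binomial (Clopper-Pearson) 95% intervals that cover counting error only. Intervals on nucleosomes pool those of several genes as if they were independent. Nucleosomes of the same gene are not, so these intervals are too narrow.

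Most of the 37 genes lay beside an expressed gene that pointed the other way. Of the 37, 25 (67.6%, interval 50.2 to 82.0%) had another start at 1 FPKM or more within 2 kb, against 7.01% of all analysed genes. In each of the 25, the expressed gene began upstream on the opposite strand, the head-to-head arrangement found at 6.84% of all analysed genes. Of the 889 analysed genes with an expressed start within 2 kb, 867 were head to head. Overlapping loci share coordinates and were left out, so the orientation of the 25 was largely set by the choice of loci. No member had an expressed start on its own strand within 2 kb, an arrangement found at 0.166% of all analysed genes. Another expressed start within 2 kb, on either strand, was found at 0.747% (38 of 5088) of silent genes with no T. The share was 16.1% (567 of 3512) at genes at 1 FPKM or more with 3 or more T. It was 47.2% (42 of 89) at genes with 3 or more T at 0.1 to 1 FPKM. The interval of the members did not overlap those of the silent genes without T (0.529 to 1.02%) or of the expressed genes (14.9 to 17.4%), whereas it did overlap that of the weakly expressed genes (36.5 to 58.1%). The window that counts T also takes in T of a neighbour that starts within 2 kb. Choosing silent genes by 3 or more T, or by none, therefore bears on these shares, and their separation is not a separate result. Strand is not given in the expression table and was read from the order of its loci. The strand so obtained was that of RefSeq in 24 of the 24 members with an entry, in 21 of the 21 neighbours with an entry, and in 9173 of 9208 analysed genes (99.6%).

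The neighbours were expressed at 2.45 to 795 FPKM, with a median of 19.8 FPKM, and 17 of the 25 reached 10 FPKM. The starts of a pair lay 33 to 1589 bp apart, with a median of 311 bp, and 17 of 25 pairs lay within 500 bp. For 7 of the 25, the neighbour shared its table coordinates with further loci, so that its start is the end of a merged locus and may not be its own. These 7 were TMEM146, BEND6, DKKL1, FBXO24, MIR3928, SYNGR4 and TULP2, and the distances given for them below have this limit. With neighbours that share coordinates left out, a choice made after the data were seen, 18 of 37 members (48.65%) kept an expressed start within 2 kb. So did 11 of 5088 silent genes without T (0.216%).

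**Figure D1:**
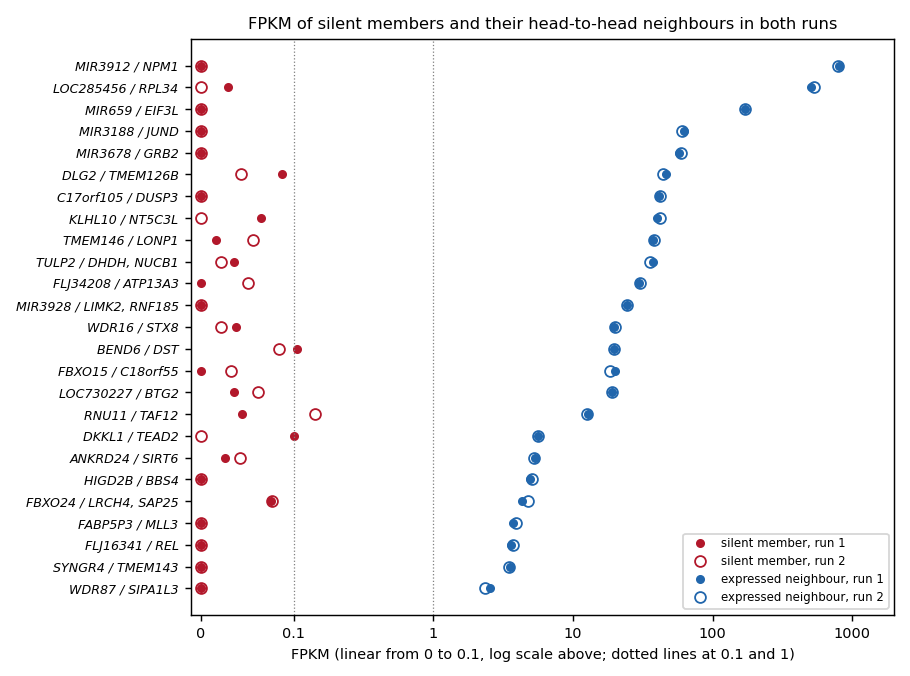
FPKM of the 25 silent genes (red) and of their head-to-head neighbours (blue) in run 1 (filled) and run 2 (open), ordered by the neighbour's level; the axis is linear from 0 to 0.1 FPKM and logarithmic above. The silent genes sit at or near 0 and the neighbours between 2.45 and 795 FPKM, a separation that the limits of 0.1 and 1 FPKM set by themselves.

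The largest number of T, 8, was found at TMEM146 (current symbol CATSPERD), a subunit of the sperm-specific calcium channel CatSper, at chr19:5720688-5778742 (hg19, plus strand). Its FPKM was 0.0165 in run 1 and 0.0564 in run 2. The start of LONP1, the Lon protease of the mitochondrial matrix, lay at -115 bp (negative distances are upstream of the silent gene) and had 37.3 and 38.0 FPKM. Of the 8 T, 7 lay on the LONP1 side, from -1726 to -218 bp, and the remaining T lay at 169 bp inside TMEM146. LONP1 shares its coordinates in the table with C19orf70, HSD11B1L and RPL36.

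LOC730227, an uncharacterised noncoding locus at chr1:203267886-203274453 (minus strand), had 7 T. Its values were 0.0355 and 0.0613 FPKM, and those of BTG2, an antiproliferative gene that starts at -211 bp, were 18.9 and 19.0 FPKM. The T formed a run of 6 on the BTG2 side, from -1321 to -304 bp, and a single one at 151 bp. No other combination of marks was listed within 2 kb of its start.

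RNU11, the U11 small nuclear RNA of the minor spliceosome, also had 7 T, at a locus of 5968 bp on chr1:28969678-28975645 (plus strand). It was at 0.0449 FPKM in run 1 and 0.141 FPKM in run 2, so run 2 alone would not have counted it as silent. TAF12, a subunit of the general transcription factor TFIID, started at -74 bp with 12.9 and 12.6 FPKM. Here the T were split almost evenly, with 4 upstream (-736 to -251 bp) and 3 downstream (199, 389 and 536 bp).

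FLJ16341 (chr2:61074895-61108449, minus strand), with 6 T, stood opposite REL, a member of the NF-kB family. The silent locus was at 0 FPKM in both runs, and REL, starting at -100 bp, was at 3.60 and 3.69 FPKM. There were 3 T on each side of the start, the downstream ones at 12, 227 and 375 bp. FLJ16341 and RNU11, with C12orf33 and MEIG1 described below, had the most T downstream of any member, 3 each. RNU11 is a small RNA, and the low values of such loci have the limit given below.

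BEND6, which encodes a BEN domain protein, was among the 3 members with the highest mean FPKM (0.105 in run 1 and 0.0842 in run 2). Its locus, chr6:56819731-56892354 on the plus strand, started 74 bp from that of DST, the cytoskeletal linker dystonin (at -74 bp, 19.8 and 19.7 FPKM). It had 3 T, at -451, -69 and 206 bp, and 4 positions with H3K4me3 alone, more than any other member. MIR130B, at 0.123 and 0.0728 FPKM, and RNU11 were the others of the 3.

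FBXO15, an F-box protein known from embryonic stem cells, lay at chr18:71740588-71815100 (minus strand). Its FPKM was 0 in run 1 and 0.0322 in run 2, against 20.1 and 18.4 for C18orf55, a mitochondrial protein gene that starts at -646 bp. All 4 T were upstream, at -977, -794, -332 and -144 bp, and 3 of them were nearer to the start of C18orf55. Downstream of the FBXO15 start there were a position with H3K4me3/H3K9ac at 153 bp and a position with H3K4me3 alone at 375 bp.

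The promoters of TMEM146, BEND6 and FBXO15 are shown because each is the stretch between or beside a silent and an expressed start. They come from RefSeq (GRCh38.p14), run 5′ to 3′ on the strand of the silent gene from 250 bases before its RefSeq start to 50 bases after it, and have every CG dinucleotide in capitals. TMEM146 is chr19:5720387-5720686 (plus), BEND6 is chr6:56954857-56955156 (plus) and FBXO15 is chr18:74147785-74148084 (minus) in that build.
TMEM146: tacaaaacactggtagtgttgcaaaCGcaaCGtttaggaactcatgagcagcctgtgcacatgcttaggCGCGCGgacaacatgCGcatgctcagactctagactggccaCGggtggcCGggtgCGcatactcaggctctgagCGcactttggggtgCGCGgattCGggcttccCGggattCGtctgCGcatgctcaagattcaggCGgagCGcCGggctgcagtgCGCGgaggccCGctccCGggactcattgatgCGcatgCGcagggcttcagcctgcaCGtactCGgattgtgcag
BEND6: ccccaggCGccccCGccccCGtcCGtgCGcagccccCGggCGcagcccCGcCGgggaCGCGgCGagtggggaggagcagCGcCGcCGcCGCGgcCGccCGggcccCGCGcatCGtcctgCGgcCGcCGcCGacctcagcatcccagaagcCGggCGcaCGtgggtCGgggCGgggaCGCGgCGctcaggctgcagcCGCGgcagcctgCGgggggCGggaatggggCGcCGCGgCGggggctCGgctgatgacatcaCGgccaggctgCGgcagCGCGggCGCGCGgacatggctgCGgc
FBXO15: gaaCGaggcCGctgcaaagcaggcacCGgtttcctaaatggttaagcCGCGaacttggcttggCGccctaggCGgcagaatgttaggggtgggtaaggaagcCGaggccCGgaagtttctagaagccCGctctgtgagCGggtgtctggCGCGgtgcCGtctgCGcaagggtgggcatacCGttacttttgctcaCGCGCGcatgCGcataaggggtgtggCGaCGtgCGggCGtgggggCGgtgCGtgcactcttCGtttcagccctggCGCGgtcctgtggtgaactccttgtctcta
These 300 bases held 27 CG in TMEM146, 51 in BEND6 and 29 in FBXO15, against a median of 22 over the analysed genes with a single promoter entry and 12 over all 22114 such promoters of the table. The build differs from that of the nucleosome positions, so no nucleosome was placed on these letters.

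The further 11 protein-coding members with a head-to-head neighbour had mean values of 0 to 0.0760 FPKM. KLHL10, needed for the maturation of sperm, was at 0.0648 and 0 FPKM beside the nucleotidase gene NT5C3L (-1520 bp, 40.9 FPKM, the mean of both runs here and in the pairs that follow). DLG2, a scaffold of the postsynaptic density with a locus of 2173363 bp, was at 0.0879 and 0.0432 FPKM beside TMEM126B, a complex I assembly factor (-139 bp, 45.6 FPKM). DKKL1, a protein of the sperm acrosome, was just under 0.1 FPKM in run 1 and at 0 in run 2, beside TEAD2, a transcription factor of the Hippo pathway (-1273 bp, 5.61 FPKM). The neighbours of these 3 differed widely in level.

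WDR16 (current symbol CFAP52), a protein of cilia and flagella, was paired with the syntaxin STX8 (-627 bp, 19.8 FPKM). C17orf105 (CFAP97D1) was paired with the phosphatase DUSP3 (-1435 bp, 41.7 FPKM). TULP2, of the tubby-like family, was paired with DHDH and NUCB1, which share coordinates (-1285 bp, 36.5 FPKM). All T of these members, 3 at each, lay upstream of the silent start.

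FBXO24, an F-box protein, was paired with LRCH4 and SAP25 (-50 bp, 4.55 FPKM). SYNGR4, of the synaptogyrin family, was paired with TMEM143 (-150 bp, 3.51 FPKM), and ANKRD24 with SIRT6, a chromatin deacylase (-754 bp, 5.32 FPKM). HIGD2B was paired with BBS4, a component of the ciliary BBSome (-36 bp, 4.98 FPKM). WDR87 was paired with SIPA1L3 (-348 bp), which at 2.45 FPKM was the lowest of the 25 neighbours. The partners of these 5 were all below 6 FPKM, and each of the 5 members had 3 to 5 T.

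LOC285456, a noncoding locus, lay beside the ribosomal protein gene RPL34 (-92 bp, 517 FPKM) and FLJ34208, which has no gene type in the reference, beside the transport ATPase gene ATP13A3 (-96 bp, 29.9 FPKM). The pseudogene FABP5P3 was paired with MLL3, an H3K4 methyltransferase (-311 bp, 3.81 FPKM). Each of these 3 had 4 T, and all of them were upstream. Those of FLJ34208, from -1217 to -682 bp, lay beyond the start of ATP13A3.

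Small RNA genes made up 13 of the 37 members, against 283 of 5088 silent genes without T (5.56%), and 11 of the 37 had a locus shorter than 200 bp (29.7%, against 2.37% of all analysed genes). Such genes were seldom detected in this RNA library at all: 301 of the 312 small RNA loci analysed (96.5%) were below 0.1 FPKM and 296 were at 0 in both runs. The library was made from total RNA after removal of ribosomal RNA, with a kit for mRNA, and the recovery of RNA shorter than the sequenced fragments is not given in the sources used here. Silence of these 13 therefore says that their RNA was not detected, and low transcription cannot be told apart from loss of short RNA. The listed start of a locus shorter than 200 bp is an end of that short stretch and need not be a transcription start. Distances and sides of T at such members are counted from that end. With small RNA loci left out, a choice made after the data were seen, 19 of 24 members (79.17%) had an expressed start within 2 kb. Of the 98 T of these 24 members, 21 (21.43%) lay downstream. Of the 301 silent small RNA loci, 13 (4.32%, interval 2.32 to 7.27%) had 3 or more T, against 17 of 4109 silent protein-coding loci (0.414%, interval 0.241 to 0.662%).

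MicroRNAs are short RNAs that pair with target transcripts through their seed, bases 2 to 8 of the mature strand. There were 11 MIR loci among the members, and RefSeq (GRCh38.p14) gave 14 mature sequences for 10 of them, with 13 different seeds. MIR130B and MIR301B, neighbours on chromosome 22, had the only seed that occurred more than once. Their mature 3p strands are shown with the seed in capitals.
hsa-miR-130b-3p: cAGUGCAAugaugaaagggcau
hsa-miR-301b-3p: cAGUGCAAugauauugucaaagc
The mature strands of the MIR members that stood head to head with an expressed gene follow in the same form, 1 strand for each locus.
hsa-miR-3188: aGAGGCUUugugcggauacgggg
hsa-miR-3678-3p: cUGCAGAGuuuguacggaccgg
hsa-miR-3912-3p: uAACGCAUaauauggacaugu
hsa-miR-3928-3p: gGAGGAACcuuggagcuucggc
hsa-miR-659-3p: cUUGGUUCagggagggucccca
No seed was shared among these 5 loci.

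All 5 of these miRNA loci were at 0 FPKM in both runs. MIR3912 had NPM1, the nucleolar protein nucleophosmin, at -467 bp, which at 795 FPKM was the highest of the 25 neighbours. MIR659 stood opposite EIF3L, a translation initiation factor subunit (-1589 bp, 171 FPKM), MIR3188 (chr19:18392887-18392971, plus strand, 6 T) stood opposite the AP-1 factor JUND (-455 bp, 61.5 FPKM), and MIR3678 opposite the adaptor GRB2 (-344 bp, 58.5 FPKM). MIR3928 had the closest neighbour of all members, the shared locus of LIMK2 and RNF185 (-33 bp, 24.4 FPKM). In MIR3912, MIR659 and MIR3678 all T were upstream and nearer to the neighbour's start, whereas MIR3188 had 2 of 6 and MIR3928 had 1 of 3 T downstream.

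**Figure D2:**
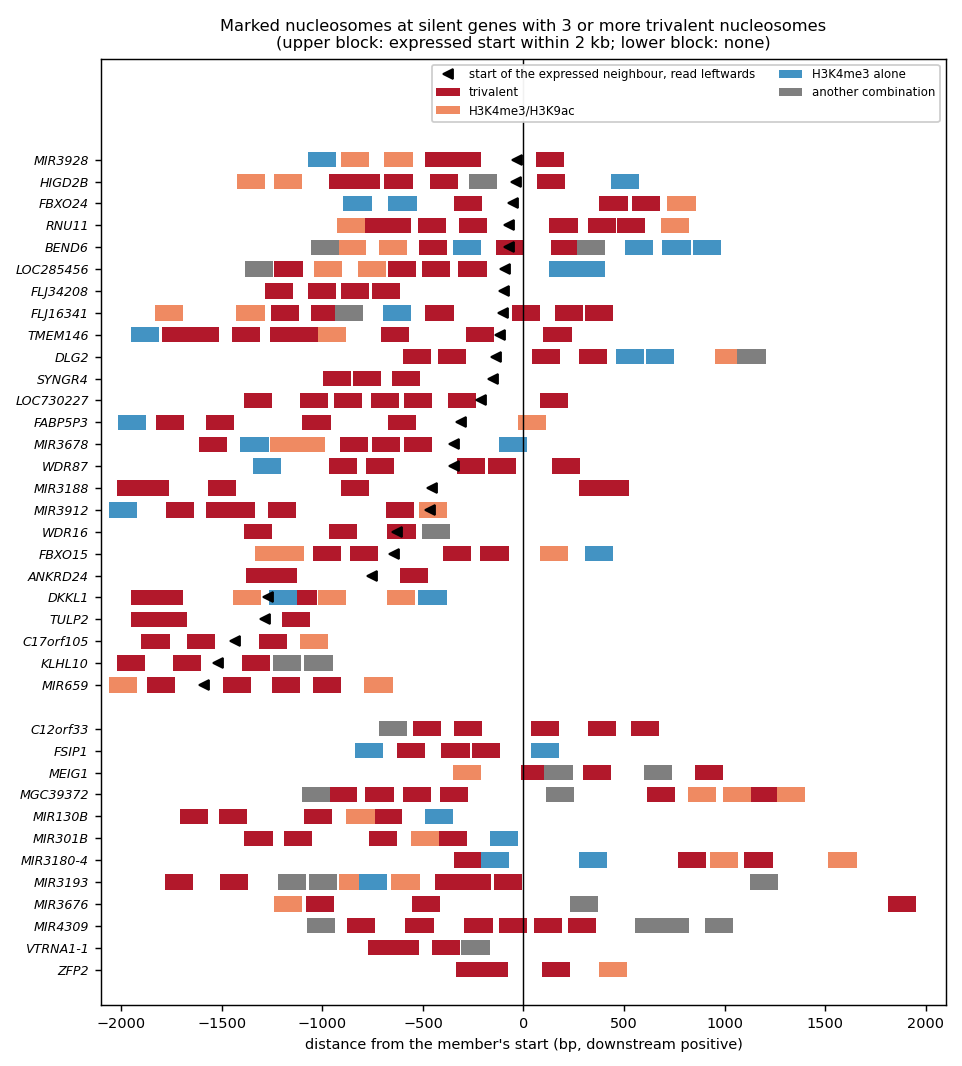
Marked nucleosome positions within 2 kb of the start of each of the 37 members, by distance from the start in bp, coloured by mark combination and drawn 140 bp wide; triangles give the start of the head-to-head neighbour, which is transcribed leftwards. In the upper block the T gather to the left of the triangles, and of all 155 T, counted per gene, 32 lie to the right of the member's own start.

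Of 155 T counted per member, 32 (20.6%, interval 14.6 to 27.9%) were downstream of the start, against 74.95% of T at genes with 1 FPKM or more and 3 or more T (11977 of 15979). The share rose to 31.11% with T counted within 1 kb, and the direction turned, to 65.16%, when all named loci were taken, also those that share coordinates and whose listed start may not be their own. At 19 of 37 members no T was downstream, compared with 1.40% of those expressed genes. Among the expressed genes that were head to head with another expressed gene, 30 of 560 (5.36%) had no T downstream. At 0.1 to 1 FPKM, 14 of 89 genes with 3 or more T (15.7%) had none. The 25 head-to-head members had 18 of 107 T downstream (16.8%, interval 10.3 to 25.3%), whereas the 560 expressed genes that were themselves head to head with an expressed gene had 49.8% (interval 47.9 to 51.6%). The share was 51.4% at the genes of 0.1 to 1 FPKM.

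Within the 25 pairs, 87 of 107 T (81.3%, interval 72.6 to 88.2%) were nearer to the expressed start than to the silent one, and in 13 pairs this held for every T. In such pairs most T upstream of the silent start are nearer to the neighbour, so this share largely restates the sides given above. It was not counted for other head-to-head pairs. The number of T within 2 kb of the neighbour's start equalled that of the member in 25 of 25 pairs. Since the windows of a pair overlap over most of their length, this count does not add to the choice of the members. H3K4me3/H3K9ac positions lay downstream in 5 of 28 cases at the head-to-head members, and H3K4me3 alone in 9 of 22 cases (40.9%, interval 20.7 to 63.7%). The latter interval overlapped that of expressed head-to-head genes (53.0%, interval 49.5 to 56.5%). For H3K4me3/H3K9ac the interval was 6.06 to 36.9% at the members and 49.3 to 57.0% at the expressed genes. These intervals count nucleosomes rather than genes and are too narrow, so no difference is read from their separation.

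**Figure D3:**
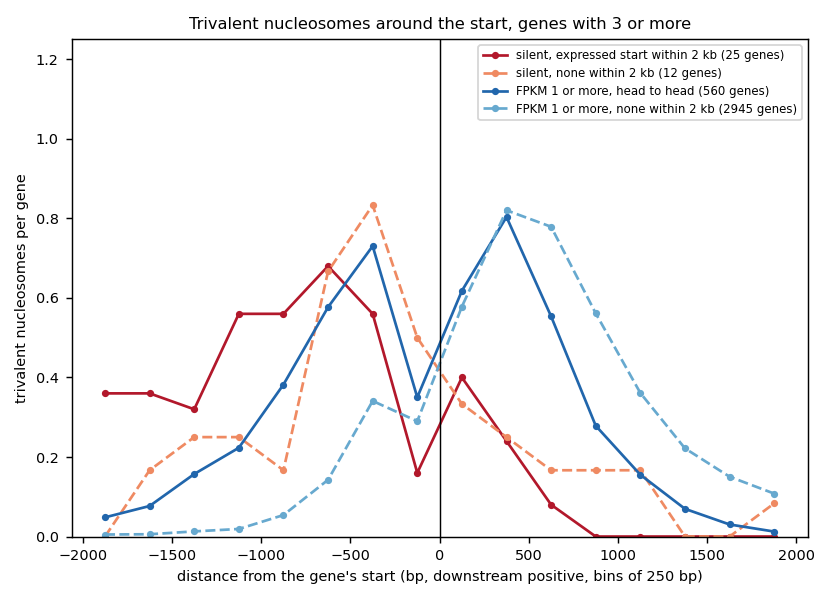
T per gene in bins of 250 bp by distance from the start, for the 25 members with an expressed start within 2 kb, the 12 without, and expressed genes with 3 or more T that are head to head (560) or have no expressed start within 2 kb (2945). From 250 to 500 bp downstream the head-to-head members have 0.240 T per gene and the expressed head-to-head genes 0.804.

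Where silent genes lay close to an expressed start, T were more common than far from one. Of 50 silent genes with an expressed start within 500 bp, 17 (34.0%, interval 21.2 to 48.8%) had 3 or more T. The share was 3 of 10 from 500 bp to 1 kb, 5 of 23 (21.7%) from 1 to 2 kb and 4 of 77 (5.19%) from 2 to 5 kb. Beyond 5 kb it was below 1%, with 1 of 140 up to 10 kb, 5 of 1129 up to 50 kb and 2 of 3755 farther away. The intervals of the first 3 classes overlapped, and that from 2 to 5 kb (1.43 to 12.8%) overlapped those of 500 bp to 1 kb and of 1 to 2 kb, so no order among neighbouring classes up to 5 kb was detectable at these numbers. A window of 2 kb around a silent start reaches the nucleosomes of a neighbour that starts within it and counts them for both genes.

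**Figure D4:**
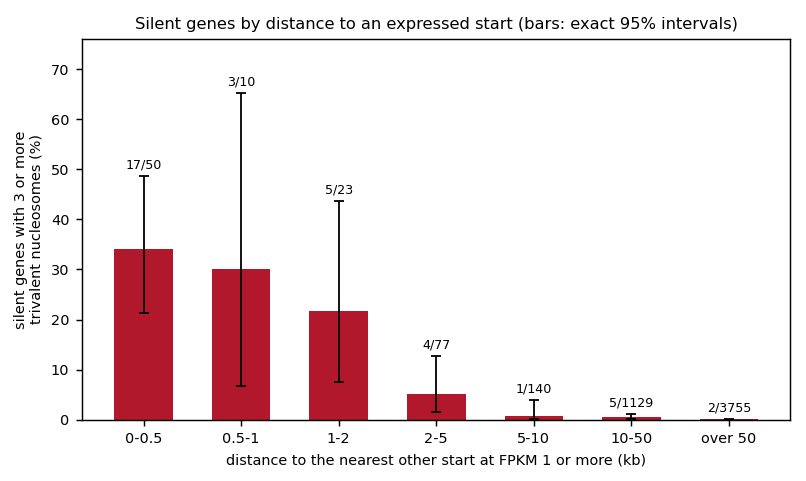
Share of silent genes with 3 or more T, in percent, by distance in kb to the nearest other start at 1 FPKM or more, with the counts above the bars and exact 95% intervals as error bars. The share is 34.0% within 0.5 kb and 5.19% from 2 to 5 kb.

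Not every silent gene in a head-to-head pair had T. Of 76 such genes, 25 were members, 19 had 1 or 2 T and 32 had none. The 32 without T had neighbours with a median of 6.30 FPKM (1.003 to 80.2), against 19.8 FPKM (2.45 to 795) for the members, and 3 of their 32 neighbours had any T within 2 kb. Of the 28 silent genes whose neighbour had 3 or more T, 25 had 3 or more in their own window, which overlaps that of the neighbour. The ranges of the neighbours' FPKM overlapped widely, and levels alone did not separate silent genes with T from those without.

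The remaining 12 members had no expressed start within 2 kb: C12orf33, FSIP1, MEIG1, MGC39372, MIR130B, MIR301B, MIR3180-4, MIR3193, MIR3676, MIR4309, VTRNA1-1 and ZFP2. Of these, 7 were small RNA loci and 3 were protein coding. Of the 12, C12orf33, MIR3193 and MIR3676 lay within 2 kb of the far end of an expressed locus. For C12orf33 this is the end of a locus with shared coordinates and may not be that of the expressed gene. For 8 of the 37 members no expressed start lay within 5 kb. The 12 had 14 of 48 T downstream (29.2%, interval 17.0 to 44.1%), which overlapped the interval of the head-to-head members.

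FSIP1, an interactor of the fibrous sheath of the sperm tail, was the member farthest from an expressed start. It lay at chr15:39892232-40075039 (minus strand), and the nearest such start was that of EIF2AK4, a kinase of the translation factor eIF2, at -151185 bp with 19.5 FPKM. EIF2AK4 shares its coordinates in the table with SRP14, so this start may not be its own. FSIP1 itself was at 0.0159 FPKM in run 1 and 0.0357 in run 2. Its 3 T were all upstream, at -561, -338 and -188 bp, flanked by positions with H3K4me3 alone at -768 and 107 bp. No other start of the table, expressed or not, lay within 2 kb.

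ZFP2, a zinc finger protein gene at chr5:178322916-178360210 (plus strand), had 3 T on both sides of its start, at -264, -149 and 161 bp. It was at 0.0924 and 0.0419 FPKM, and the nearest expressed start was that of ZNF354B, another zinc finger gene, at -36101 bp with 3.25 FPKM. MEIG1, which acts in sperm formation, was the single member with no T upstream. Its T lay at 56, 364 and 922 bp inside the locus (chr10:15001438-15014850, plus strand), and it was at 0 FPKM in both runs. The nearest expressed start, at -4653 bp, was that of DCLRE1C, the DNA repair nuclease Artemis (3.36 FPKM), which shares its coordinates with SUV39H2.

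The promoters of FSIP1 and MEIG1 are shown as those of members with T but no expressed start nearby, in the same form as above. FSIP1 is chr15:39782792-39783091 (minus) and MEIG1 is chr10:14959138-14959437 (plus) in GRCh38.p14.
FSIP1: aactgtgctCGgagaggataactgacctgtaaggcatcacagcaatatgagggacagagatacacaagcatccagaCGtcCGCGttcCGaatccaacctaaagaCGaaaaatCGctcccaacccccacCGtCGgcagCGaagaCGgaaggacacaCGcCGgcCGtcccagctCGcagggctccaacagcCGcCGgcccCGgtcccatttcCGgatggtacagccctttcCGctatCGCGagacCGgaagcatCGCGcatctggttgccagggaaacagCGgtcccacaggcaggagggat
MEIG1: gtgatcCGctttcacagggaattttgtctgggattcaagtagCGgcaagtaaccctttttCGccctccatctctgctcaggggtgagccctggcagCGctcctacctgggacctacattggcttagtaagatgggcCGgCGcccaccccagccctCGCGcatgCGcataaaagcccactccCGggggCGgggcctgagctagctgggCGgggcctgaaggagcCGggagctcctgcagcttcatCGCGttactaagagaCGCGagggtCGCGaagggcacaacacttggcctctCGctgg
They held 26 and 20 CG, on either side of the median of 22 over the analysed genes. A promoter with a single entry was at hand for 10 of the 37 members, and these held 4 (C17orf105) to 51 (BEND6) CG. Letters were searched on both strands: TATAAA was in 0 of the 10 (11.6% of the analysed genes' promoters and 12.7% of all in the table), CCAAT in 1, that of MEIG1 (37.6% and 36.2%), and GGGCGG in 6 (57.7% and 43.0%). With 10 of 37 members covered, these shares are given as a description only.

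C12orf33 (LINC00612, chr12:9208185-9217666, minus strand) had 5 T, at -481, -276, 109, 389 and 604 bp, and values of 0.0685 and 0.0523 FPKM. The nearest start, LOC144571 at -107 bp on the opposite strand, was at 0.940 FPKM, just under the limit of 1 FPKM used here for expression. The same coordinates are given in the table for A2M, the plasma protease inhibitor alpha-2-macroglobulin, at 1035 FPKM. The point at -107 bp is an end of this shared locus, and it may not be the end of A2M or the start of LOC144571 itself.

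MGC39372 (chr6:2853901-2876826, minus strand) was at 0 FPKM in both runs with 6 T, 4 upstream (-896 to -346 bp) and 2 downstream (684 and 1189 bp). The nearest expressed start was that of SERPINB9, a granzyme B inhibitor, at -26865 bp with 5.17 FPKM. MIR4309 (chr14:103005981-103006063, plus strand) was also at 0 FPKM with 6 T, at -809, -517, -224, -54, 121 and 293 bp. The nearest expressed start there belonged to an unnamed locus at 5150 bp with 5.62 FPKM.

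MIR130B (chr22:22007593-22008903) and MIR301B (chr22:22007270-22007347), both on the plus strand, shared the same 4 T, so the 155 T of the members were 151 different nucleosomes. MIR301B was at 0 FPKM in both runs, and MIR130B, whose locus of 1311 bp is longer than a miRNA precursor, was at 0.123 and 0.0728. All 4 T were upstream of both, from -1318 to -353 bp of MIR301B and from -1641 to -676 bp of MIR130B. The nearest expressed start was that of SDF2L1, a protein of the endoplasmic reticulum (33.0 FPKM), at -10728 bp of MIR301B.

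MIR3180-4 (chr16:15248707-15248859, minus strand) was at 0 FPKM with T at -275, 837 and 1169 bp. It belongs to a family of repeated copies, and the paper reports uniquely aligned reads for nucleosomes and histone marks. Reads that fit several copies may be missing there, and the effect on its marks was not tested. MIR3180-4 had the fewest nucleosome positions of any member within 2 kb, 13. The nearest expressed start was an unnamed locus at 48257 bp with 4.73 FPKM. VTRNA1-1, a vault RNA, and MIR3676 were at 0 FPKM as well, with 3 T each. The nearest expressed start for MIR3676 was that of C17orf59 (3071 bp, 5.73 FPKM). For VTRNA1-1 it was the shared locus of DND1 and HARS (-4604 bp, 24.4 FPKM). HARS2, ZMAT2 and WDR55 have the same coordinates in the table, so this is the end of a merged locus and may not be a start of DND1 or HARS.

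Near the members H3K27me3 was rare, whereas for H3K9me3 no difference from all analysed genes was detectable. H3K27me3 or H3K9me3 was listed within 10 kb of 3 of 37 starts (8.11%, interval 1.70 to 21.9%), against 26.1% of all analysed genes, 40.4% of silent genes without T and 11.1% of expressed genes with 3 or more T. It was 18.6% (interval 9.69 to 30.9%) in silent genes with 1 or 2 T and 15.6% (interval 5.28 to 32.8%) in silent genes without T that were head to head with an expressed gene, and both of these intervals overlapped that of the members. The members' interval thus lay below that of silent genes without T (39.1 to 41.8%) and included the value of the expressed genes. Since a T must lack both marks, the rule itself bears on this count within 2 kb. No member had H3K27me3 within 2 kb, compared with 17.5% of the silent genes without T and 9.44% of all analysed genes, and 0 of 37 allows a share of up to 9.49% (exact upper bound). Within 10 kb, H3K27me3 was at 1 of 37 members (2.70%, interval 0.0684 to 14.2%), against 18.7% of all analysed genes. H3K9me3 was at 3 of 37 within 10 kb, and the interval of 1.70 to 21.9% included the 10.6% of all analysed genes. Within 2 kb it was at 2 of 37 (5.41%, interval 0.661 to 18.2%), against 2.38%.

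The 3 members with such a mark differed in where it lay. MIR3193 (chr20:30194989-30195043, plus strand), at 0 FPKM in both runs, had 5 T from -1712 to -77 bp and, among them at -1152 and -997 bp, a pair of nucleosomes with H3K9me3 on top of all 3 activation marks. The far end of ID1, an inhibitor of bHLH transcription factors at 267 FPKM, lay at -673 bp of MIR3193, and its start at -4263 bp. MEIG1 likewise had a nucleosome with all 3 activation marks and H3K9me3, at 669 bp. FBXO15 had 1 position with H3K27me3 and 1 with H3K9me3 within 10 kb, both farther than 2 kb from its start.

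The other marked positions around the members carried activation marks. Of 241 different marked positions within 2 kb, 151 were T, 39 carried H3K4me3/H3K9ac and 28 carried H3K4me3 alone, while the remaining combinations had at most 6 positions each. H3K4me3 alone was found at 19 of 37 members (51.4%, interval 34.4 to 68.1%), against 8.81% of silent genes without T, 64.0% of expressed genes with 3 or more T and 38.0% of all analysed genes, the last within the members' interval. H3K4me3/H3K9ac was found at 24 of 37 members (64.9%, interval 47.5 to 79.8%), against 3.32%, 55.7% and 31.4% in the same order. Members were chosen by T, and the silent genes without T by their absence, in the same lists and the same window. The choice therefore bears on these shares, and no difference is read from them. The number of nucleosome positions within 2 kb, a measure the rule did not use, had a median of 19 at the members (13 to 23). The median was 21 at silent genes without T, 19 at expressed genes with 3 or more T and 20 at all analysed genes. The quartiles of the members (18 and 20) and of the silent genes without T (19 and 22) enclosed overlapping ranges.

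Values close to the limits of the rule show how it divides the genes. Of the 37 members, 19 were at 0 FPKM in both runs, 5 were at 0 in a single run, and 3 (RNU11, MIR130B and BEND6) were at 0.1 FPKM or more in 1 run. There were 16 members with exactly 3 T, 9 with 4, 5 with 5, 4 with 6, 2 with 7 and 1 with 8. Just above the FPKM limit stood ZMYND12 with a mean of 0.102 FPKM and 5 T, DBIL5P with 0.106 FPKM and 3 T, and LOC256880 with 0.111 FPKM and 4 T. All 3 were head to head with an expressed gene: PPCS, of coenzyme A synthesis, for ZMYND12 (-235 bp, 24.7 FPKM), GEMIN4 for DBIL5P (-286 bp, 8.89 FPKM) and H2AFZ, the histone variant H2A.Z, for LOC256880 (-124 bp, 379 FPKM). Among the 20 silent genes with exactly 2 T, 11 were head to head with an expressed gene.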

How the data were processed

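ChIP-Seq of 5 histone marks, native MNase-Seq and RNA-Seq were made from HepG2 cells, 1 sample each. The authors called nucleosome positions with DANPOS and peaks at these positions with NUCLIZE (P and FDR at most 0.01, at least 4-fold enrichment). The submitters' notes name hg19 and BWA, and for the RNA TopHat2 2.1.0, Bowtie, HOMER 4.7 and edgeR, without their roles. The deposited expression table gives FPKM in 2 columns of 30032 loci in the layout of Cuffdiff. Columns of the authors' comparison between them were not used. The files hold no read totals, and the FPKM columns summed to 857059 and 982212.

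Marks were joined by nucleosome identifier (42763 T among 203848 marked positions). The start was the low end of a locus before the first restart of locus order on a chromosome and the high end after it. Where H3K4me3 lay within 1 kb of a single end, that end was the start in 5273 of 5350 genes (98.6%). Members were chosen by the values, and the members and lists were chosen with earlier results of these data known. Every member was named. Described in full were the 5 with most T (ties by symbol, which places FLJ16341 and MGC39372 before MIR3188 and MIR4309, also with 6 T), those with no expressed start within 5 kb, those with H3K27me3 or H3K9me3 within 10 kb, the 3 highest by FPKM and the 3 genes just outside. With 1 sample per assay no test was run, and shares have exact 95% intervals from scipy 1.17.1 (Python 3.11.15, pandas 2.3.3). Counting was checked on simulated data. Alternatives changed the FPKM limit, the number and window of T, the match of peaks, the gene set and the definition of a neighbour. No member overlapped an expressed locus, which follows from the choice of loci, since overlapping loci share coordinates in the table.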

Additional observations from a re-analysis of the deposited data

How the results depend on the processing

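The number of members depended on the limits. It was 19 with both columns at 0, 21 with 4 or more T, 23 within 1 kb, 74 within 5 kb and 310 with all named autosomal loci, whether or not coordinates or symbols were shared. It lay between 30 and 43 under the 4 other alternatives. The share of members with another expressed start within 2 kb, 67.57%, was 43.24% with T counted within 5 kb, 91.94% with all named loci and 48.65% with neighbours that have their own coordinates, and stayed within its interval under 14 of 17 alternatives, among them the removal of small RNA loci (79.17%). The share overlapping another expressed locus was 80.32% with all named loci, where loci with shared coordinates enter, and 0 under the 10 others. The share of T downstream was 31.11% within 1 kb and 65.16% with all named loci, where the start of a merged locus need not be that of the gene, and stayed within its interval under 8 of 10 alternatives. The share with H3K27me3 or H3K9me3 stayed within its interval under 11 of 11. For other silent genes, the share with an expressed start within 2 kb (0.747%) was 4.51% with all named loci, 1.435% and 0.4717% with a limit of 0.1 and 5 FPKM for the neighbour, 0.452% and 2.103% with a distance of 1 and 5 kb, 1.887% with either end of the neighbour and 0.2162% with neighbours that have their own coordinates. The neighbour's own coordinates and the removal of small RNA loci were chosen after seeing the data. A stricter peak limit was not run, since the lists hold no scores. No paired analysis was possible because there was 1 sample per assay and no replicate number. Without peak heights in the lists, all counts are of marked against unmarked positions.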

Other observations

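Loci outside the analysed genes were counted in the same way. Among the analysed genes, 37 of 5184 silent ones had 3 or more T. Of 3124 unnamed autosomal loci with their own coordinates and a mean FPKM below 0.1, 69 (2.21%, interval 1.72 to 2.79%) had 3 or more T within 2 kb of their start. Another start at 1 FPKM or more lay within 2 kb of 43 of these 69 (62.3%, interval 49.8 to 73.7%). Of 2294 silent named autosomal loci left out because they share coordinates or symbols or hold several symbols, 273 (11.9%, interval 10.6 to 13.3%) had 3 or more T, and 260 of these 273 (95.2%) had another start at 1 FPKM or more within 2 kb. Where such a locus has the coordinates of an expressed one, both can have the same listed start. The 11.9% and 95.2% are therefore largely set by shared coordinates and are not a separate result. Among 310 silent named loci of chromosome X with their own coordinates, 0 had 3 or more T, with an exact upper limit of 1.18%. This limit includes the share of the silent analysed genes, so no difference of chromosome X was detectable.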
